A study of Drosophila melanogaster with 22 samples.

Results

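Open chromatin was examined at 9 genes of the Imd immune pathway in the adult fly heart: the peptidoglycan recognition protein genes PGRP-LA, PGRP-LB, PGRP-LC, PGRP-LE and PGRP-LF, and imd, key, Rel and pirk. Every deposited ATAC-seq peak that overlapped one of these genes or the 2 kb on either side was taken, which gave 525 peaks in the 22 libraries, 19 to 29 in each. In lists cut to equal length the peaks merged into 24 regions. Of these, 22 had a peak in at least 3 libraries and were kept, out of 9850 such regions in the genome, and each of the 9 genes (of 13962 in the gene table) had at least 1. The remaining pair of merged regions, in PGRP-LC and PGRP-LB, had a peak in 1 library each. Of the kept regions, 10 had a peak in all 22 libraries (45.5%), against 53.3% of all regions.

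ATAC-seq cuts accessible DNA in nuclei with a transposase, so that peaks of reads mark open chromatin. Hearts were dissected from flies of 6 groups. The age groups were hearts of w1118 flies, a common laboratory strain with white eyes, of 5 weeks and of 1 week (3 libraries each). LamC RNAi hearts (4 libraries) were compared with attp2 hearts (4 libraries), and LamB RNAi hearts (5 libraries) with attp40 hearts (3 libraries), all at 1 week. LamC is the A-type lamin, LamB the B-type lamin, and lamins line the inner nuclear membrane. Per the series' design text the RNAi groups and both of their controls carried Hand-Gal4, a driver active in the heart, and no driver is named for w1118. The knockdown was therefore directed to the cells in which Hand is active, whereas the chromatin of every cell in the dissected heart was measured. The sources used here do not give the sex of the flies, how many went into a library, or whether the libraries of a group came from separate flies. All p-values are thus set against the spread of these libraries, part of which may be technical.

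The Imd pathway answers bacteria that carry diaminopimelic acid in their peptidoglycan. The transmembrane receptor PGRP-LC and the receptor PGRP-LE, which senses peptidoglycan fragments inside the cell, bind this cell wall polymer and recruit the death-domain adaptor Imd. A kinase complex that contains Kenny, the product of key, is then activated and the NF-kappaB factor Relish, the product of Rel, is cleaved and enters the nucleus to switch on antimicrobial peptide genes. The response is restrained at several levels, by the peptidoglycan-cutting amidase PGRP-LB, by the membrane protein PGRP-LF and by Pirk, which binds the receptors and Imd. The pathway is best known from the gut and the fat body, a tissue that lies next to the heart in the abdomen together with hemocytes and pericardial nephrocytes.

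To compare lists of unequal length, the 8491 peaks with the largest −log10 p in the authors' list were taken from each library, as many as the shortest list holds. The value used below is the rank score of the strongest peak of a region in a library, which is 1 for the strongest peak of the list and falls to 0 where the cut list had no peak. It orders the sites of 1 library and cannot show a change in overall openness. Each peak has 1 value of −log10 p whatever its width, and the score is not a value per length of DNA. Coordinates are those of the dm6 genome build, counted from base 1, and regions carry the name of their gene and a letter that runs along the chromosome. The 6 regions of the neighbouring genes PGRP-LA, PGRP-LC and PGRP-LF on 3L, some of which lie within 2 kb of more than 1 of them, are called cluster regions a to f. The gene table gives spans without strand, so a gene's ends are named by their coordinates, and exons, introns and UTRs are not told apart.

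The receptor genes were open in every library. In PGRP-LC (3L, 9338810 to 9348336), cluster region d (9340248 to 9341694) had a peak in all 22 libraries, with a lowest score of 0.239, a median of 0.442 and a highest of 0.604. This is the main open site inside PGRP-LC, and its strongest summit lay within the gene in all 22 libraries. A second and weaker site inside PGRP-LC, cluster region e (9344003 to 9344372), had a peak in the equal-length list of 9 libraries only and reached at most 0.240. PGRP-LA (9334332 to 9338336), a receptor-like membrane protein reported to modulate the pathway, held a stronger site, cluster region b (9335434 to 9336441), with scores of 0.625 to 0.937 and a median of 0.849. Its group means ran from 0.751 in attp2 to 0.899 in w1118 at 5 weeks. Cluster region a (9333870 to 9334396), at the lower-coordinate end of PGRP-LA, had a peak in 11 libraries and reached at most 0.239. Cluster region c (9337887 to 9338268) lay at the higher-coordinate end of PGRP-LA and 542 bp from PGRP-LC, and scored 0 to 0.839. It was the most variable of the cluster regions over the libraries, with an SD of 0.198 and the other 5 at 0.0436 to 0.0962.

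PGRP-LE (X, 15801153 to 15803880) had a pair of regions with a peak in all 22 libraries, region b overlapping the gene and region a outside it. PGRP-LE region b (15802734 to 15805356) scored 0.528 to 0.722, with a median of 0.621. It reaches past the higher-coordinate end of PGRP-LE into sd, which encodes the transcription factor Scalloped, and the strongest summit lay within PGRP-LE in 10 of the 22 libraries. PGRP-LE region a (15798910 to 15799809), 1344 bp away on the other side and near CG15602 and sordd2, scored 0.329 to 0.761.

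Among the genes that restrain the pathway, PGRP-LF (3L, 9349609 to 9351489) had a single and strong site. Cluster region f (9349070 to 9350054), at its lower-coordinate end, scored 0.791 to 0.932 with a median of 0.869, and its group means were within 0.847 (LamB RNAi) and 0.903 (w1118 at 5 weeks). The strongest summit of region f lay between 9349425 and 9349603, outside the span of PGRP-LF, in every library. The authors' fold enrichment of this peak over local background was at least 8.48 in every library. PGRP-LB (3R, 11452849 to 11460552) lies inside the span of CG17230, so every region in it belongs to both genes. Its constant site, PGRP-LB region d (11457969 to 11459074), scored 0.312 to 0.795 with a median of 0.592. PGRP-LB region b (11454186 to 11455121) was a weaker site with a peak in the equal-length list of 11 libraries, PGRP-LB region c (11457368 to 11457611) had one in 3 libraries, and PGRP-LB region a (11450661 to 11451420), 1429 bp outside the gene and next to sals, in 21. At pirk (2R, 21660967 to 21662995), pirk region b (21661648 to 21663693) scored 0.365 to 0.745 with a median of 0.608, and the strongest summit lay within pirk in all 22 libraries. The flanking pirk regions a (21659788 to 21660099, next to Rae1) and c (21664040 to 21664501, near CG42362 and CG42363) had a peak in 13 and 17 libraries.

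Of the 22 regions, those with the highest mean scores were at the intracellular signalling genes Rel and imd. Rel region b (3R, 9046856 to 9048955), over the higher-coordinate end of Rel (9044183 to 9047977), scored 0.900 to 0.996, which put its mean above 97.6% of all regions. Its group means were 0.985 in w1118 at 5 weeks, 0.991 in w1118 at 1 week, 0.951 in LamC RNAi, 0.956 in attp2, 0.949 in LamB RNAi and 0.964 in attp40, with SDs of 0.00297 to 0.0323. Nmdmc, a gene of folate metabolism, spans all of Rel, and Mst85C lies near the region too. Rel region a (9043604 to 9044034), 149 bp from the lower-coordinate end, was weaker and had a peak in 15 libraries, with scores up to 0.507.

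At imd (2R, 18409796 to 18413599), imd region c (18413221 to 18414238) covered the higher-coordinate end and scored 0.592 to 0.960 with a median of 0.881. Its strongest summit lay within imd in 9 of the 22 libraries. Inside the gene, imd region b (18411489 to 18412864) scored 0.523 to 0.816 with a median of 0.696. Both had a peak in every library, and both are shared with Dp1, an RNA-binding protein gene that overlaps imd. The flanking imd region a (18408874 to 18409316), 480 bp outside imd and near GstE8 and GstE9, had a peak in 18 libraries and reached 0.418. The main site of key (2R, 24785514 to 24787411) was key region b (24786872 to 24787806) at its higher-coordinate end, with a median of 0.502 and a peak in 21 libraries. The strongest summit lay within key in 18 of them. Key region a (24783299 to 24783797), 1717 bp outside the gene and near TyrRS-m, had a peak in 8 libraries and was the region farthest from any of the 9 genes. The nearest regions left out by the 2 kb window lay 2642 bp from pirk and 2776 bp from PGRP-LB, with mean scores of 0.0640 and 0.374.

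**Figure D1:**
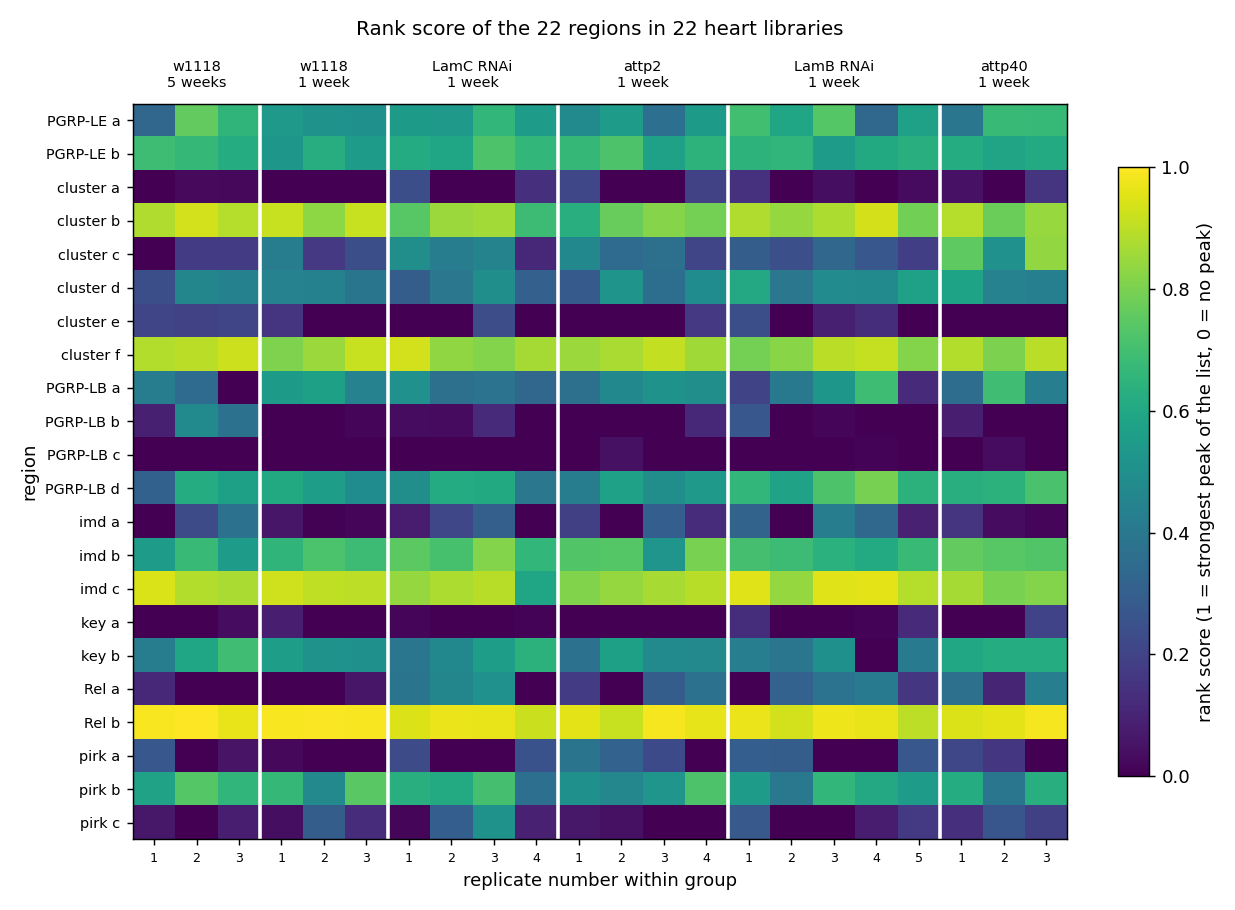
Rank score (colour, 0 to 1) of the 22 regions (rows) in the 22 libraries (columns, by group and replicate number). Rel region b, cluster regions b and f and imd region c are bright in all groups, whereas PGRP-LB region b is above 0.3 only in 2 of the 3 w1118 libraries of 5 weeks.

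With age, 1 of the 22 regions changed, PGRP-LB region b, which was higher at 5 weeks. The other sites of the receptor genes, of imd, key and Rel, and of PGRP-LF and pirk did not pass the test. The rank score of PGRP-LB region b was 0.0883, 0.480 and 0.374 in the w1118 libraries of 5 weeks, against 0, 0 and 0.0141 in those of 1 week. All 3 libraries of 5 weeks lay above all 3 of 1 week. The means were 0.314 ± 0.203 at 5 weeks and 0.00471 ± 0.00816 at 1 week (SD, n = 3 each), a difference of 0.309 ± 0.0756 (limma SE) with a limma adjusted p of 0.0410. Over all 9850 regions 1.32% passed the test, 0.609% higher and 0.711% lower, and this region ranked 116 by its p. Among the 22 regions the single call is 4.55%.

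The site was not absent from the young hearts. All 6 w1118 libraries had a deposited peak there, with the authors' fold enrichment at 3.01, 3.91 and 3.22 at 5 weeks and at 2.41, 1.95 and 2.42 at 1 week. The authors' −log10 p was 19.7, 33.8 and 29.2 at 5 weeks and 8.70, 5.01 and 13.6 at 1 week, and 2 of the 3 young peaks ranked below the strongest 8491 of their list. PGRP-LB region b therefore differed in rank and not in the presence of a peak. Its summits in the equal-length lists lay inside the gene in all 11 libraries, between 11454395 and 11454828.

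In the groups of 1 week with Hand-Gal4 the same site was low. Scores were 0.0342, 0.0277, 0.124 and 0 in LamC RNAi and 0, 0, 0 and 0.113 in attp2. They were 0.272, 0, 0.0138, 0 and 0 in LamB RNAi and 0.0847, 0 and 0 in attp40. In LamC RNAi, attp2 and LamB RNAi 1 library each reached the range of the 5-week libraries, and no score of these groups was above 0.272. By group mean the order was w1118 at 5 weeks (0.314), LamB RNAi (0.0571), LamC RNAi (0.0464), attp2 and attp40 (both 0.0282) and w1118 at 1 week (0.00471), and the ranges of the last 5 overlapped. The change with age exceeded the change after LamC RNAi by 0.291 ± 0.10 (limma adjusted p = 0.321) and that after LamB RNAi by 0.280 ± 0.101 (limma adjusted p = 0.551), so neither difference between changes passed.

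The call at PGRP-LB region b depended on single libraries and on the measure. Ranked by the authors' fold enrichment in place of −log10 p, the difference was 0.0691 with a limma adjusted p of 0.451, and in a fit of the w1118 libraries alone the limma adjusted p was 0.405. Without the filter on regions it was 0.0575, and it was 0.110 to 0.205 when any w1118 library other than 5-week replicate 1 was left out. Without 5-week replicate 1 the difference was 0.422 with a limma adjusted p of 0.00120.

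The groups of w1118 libraries did not overlap at 3 of the 22 regions (13.6%, against 14.9% of all regions), PGRP-LB region b included. At 2 of them the 5-week libraries were higher and at 1 lower, against 7.13% and 7.82% of all regions. At PGRP-LB region a the scores were 0.424, 0.351 and 0 at 5 weeks, against 0.546, 0.570 and 0.445 at 1 week. All 3 libraries of 5 weeks were lower, and replicate 3 had only a deposited peak below the strongest 8491. The difference was −0.262 ± 0.127 with a limma adjusted p of 0.430, and without replicate 3 of 5 weeks it was −0.133. At cluster region e, the weaker site inside PGRP-LC, the scores were 0.208, 0.193 and 0.210 at 5 weeks, against 0.153, 0 and 0 at 1 week. The 5-week libraries were close together and above the young ones, with a difference of 0.153 ± 0.0662 and a limma adjusted p of 0.348. Ranked by the authors' fold enrichment it was 0.0363.

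No age difference passed at the main sites of the pathway. At cluster region d the mean was 0.378 ± 0.121 at 5 weeks and 0.424 ± 0.0316 at 1 week, and at PGRP-LE region b it was 0.659 ± 0.0368 at 5 weeks and 0.568 ± 0.0497 at 1 week (SD, n = 3 each). At imd region c it was 0.900 ± 0.0366 at 5 weeks and 0.911 ± 0.0139 at 1 week, and at key region b it was 0.567 ± 0.138 at 5 weeks and 0.524 ± 0.0278 at 1 week. The age groups overlapped at each of these, at PGRP-LE region b only by the lowest 5-week library (0.618) and the highest young one (0.623). Over the 22 regions the median age difference was 0.0145, with 12 above and 9 below 0, and over all regions it was 0. At an unadjusted limma p under 0.05 there were 2 of the 22 regions (9.09%), against 11.6% of all regions.

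**Figure D2:**
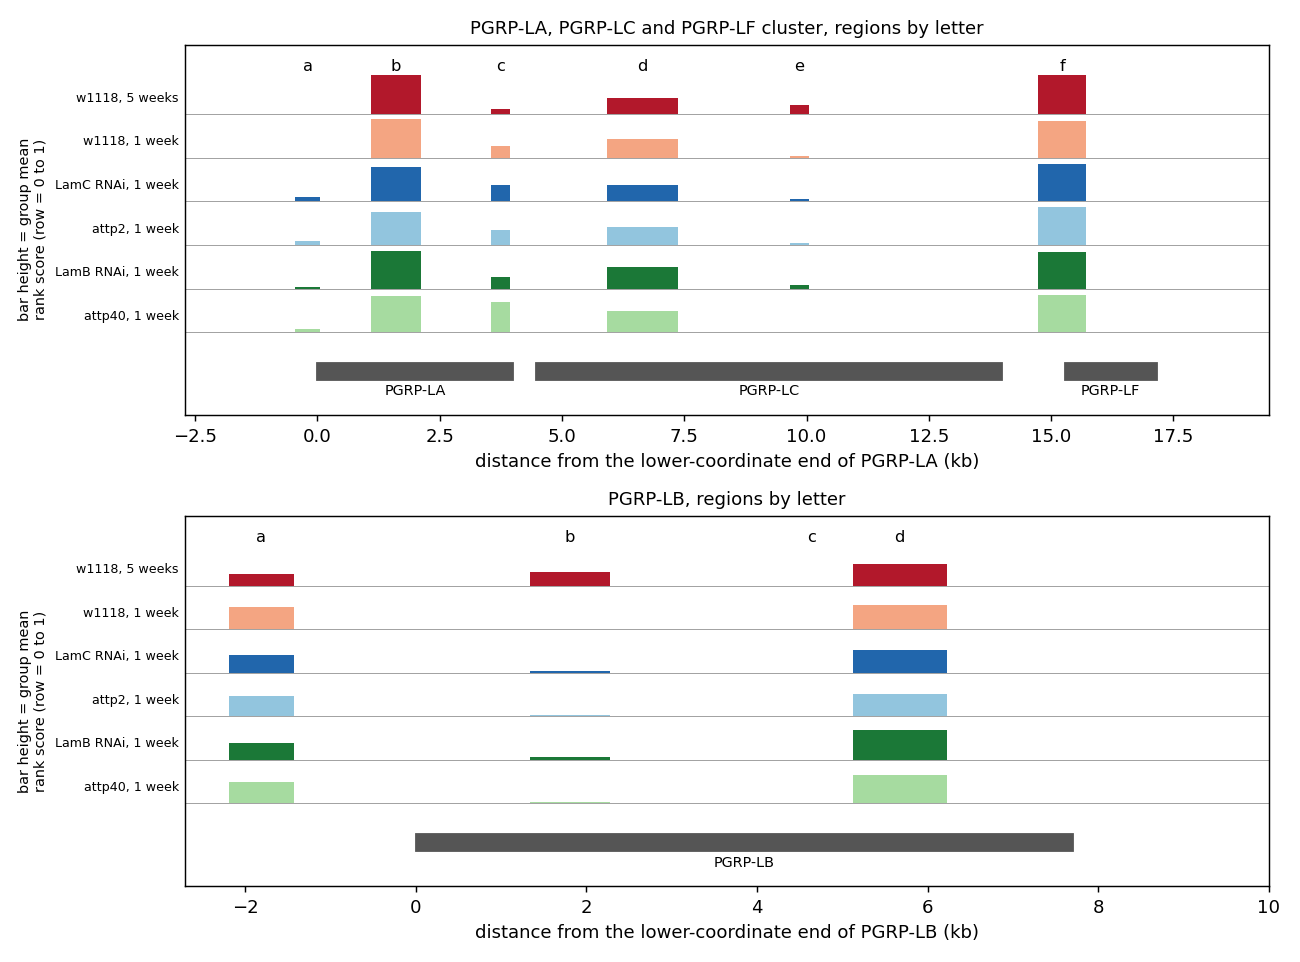
Group mean rank score (bar height, each row from 0 to 1) of the regions of the PGRP-LA, PGRP-LC and PGRP-LF cluster and of PGRP-LB, against distance from the lower-coordinate end of the first gene in kb, with gene spans as grey bars. PGRP-LB region b stands out at 5 weeks (mean 0.314) and cluster region c in attp40 (mean 0.698), while cluster regions b and f are high in all 6 groups.

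After LamC RNAi none of the 22 regions changed against attp2 in the limma fit, in which 15 of all regions (0.152%) passed. At cluster region d, imd region b and Rel region b the group means lay within 1 SD of each other. Cluster region d had a mean of 0.375 ± 0.0941 in LamC RNAi and 0.412 ± 0.110 in attp2, imd region b 0.734 ± 0.0651 in LamC RNAi and 0.698 ± 0.120 in attp2, and Rel region b 0.951 ± 0.0231 in LamC RNAi and 0.956 ± 0.0296 in attp2 (SD, n = 4 each). The only region with an unadjusted limma p under 0.05 (4.55% of the 22, against 6.59% of all regions) was the flanking pirk region c. It scored 0.0175, 0.298, 0.512 and 0.0909 in LamC RNAi, against 0.0637, 0.0443, 0 and 0 in attp2. Replicates 2 and 3 of LamC RNAi were high and replicate 1 lay within the attp2 range, with a difference of 0.203 ± 0.0822 and a limma adjusted p of 0.685. Without LamC RNAi replicate 3 the difference was 0.109, and ranked by the authors' fold enrichment it was 0.126. Both groups overlapped at each of the 22 regions, whereas 3.09% of all regions separated them, 1.59% higher and 1.49% lower in LamC RNAi. The median difference over the 22 regions was 0.0115, against 0.00166 over all.

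After LamB RNAi none of the 22 regions passed the test against attp40 either, where 18 of all regions (0.183%) did, 0.112% higher and 0.0711% lower, and cluster region c, next to PGRP-LC at the end of PGRP-LA, had the lowest p of the 22. Its scores were 0.296, 0.242, 0.328, 0.270 and 0.186 in LamB RNAi, against 0.750, 0.505 and 0.839 in attp40. All 5 LamB RNAi libraries lay below all 3 attp40 libraries. The means were 0.265 ± 0.0543 (SD, n = 5) in LamB RNAi and 0.698 ± 0.173 (n = 3) in attp40, a difference of −0.434 ± 0.0937 with a limma adjusted p of 0.0648. The p ranked 20 among all regions. The authors' fold enrichment there was 2.98, 3.21, 3.56, 3.76 and 2.76 in LamB RNAi and 4.81, 4.23 and 6.02 in attp40, and each of the 22 libraries had a deposited peak.

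Set beside the other groups, it was attp40 that stood apart at cluster region c. Scores were 0, 0.179 and 0.175 in w1118 at 5 weeks and 0.424, 0.167 and 0.241 in w1118 at 1 week. They were 0.495, 0.419, 0.448 and 0.116 in LamC RNAi and 0.466, 0.349, 0.369 and 0.211 in attp2. All these libraries lay below the lowest attp40 library, and the LamB RNAi mean of 0.265 was within the other group means of 0.118 to 0.370. The change after LamC RNAi exceeded that after LamB RNAi by 0.454 ± 0.130, with a limma adjusted p of 0.311.

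The side of the threshold on which cluster region c fell depended on the processing and on the controls. The limma adjusted p was 0.0300 with lists cut to 4245 peaks, 0.0242 when ranked by the authors' fold enrichment, 0.0202 with libraries weighted by their quality and 0.0183 without attp40 replicate 2. In a fit of the LamB RNAi and attp40 libraries alone it was 0.305, and it was 0.204 without attp40 replicate 1. Without attp40 replicate 3 it was 0.373, with a difference of −0.363. That library has the shortest deposited list (8491 peaks, against 9448 and 9711 in the other attp40 libraries), and its file name carries a date in February where those of all other LamB RNAi and attp40 libraries carry dates in July. What the dates stand for is not given. Among the July libraries alone, the groups still did not overlap.

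At key region b, over the end of the gene for the kinase subunit Kenny, the scores were 0.427, 0.392, 0.501, 0 and 0.409 in LamB RNAi, against 0.597, 0.618 and 0.618 in attp40. All 5 LamB RNAi libraries were lower, and replicate 4, at 0, had a deposited peak below its strongest 8491. The means were 0.346 ± 0.198 (SD, n = 5) in LamB RNAi and 0.611 ± 0.0122 (n = 3) in attp40, a difference of −0.265 ± 0.0907 with a limma adjusted p of 0.481. Without replicate 4 of LamB RNAi it was −0.178. At imd region b, inside the adaptor gene, the scores were 0.706, 0.684, 0.637, 0.612 and 0.672 in LamB RNAi, against 0.761, 0.739 and 0.727 in attp40. Again every LamB RNAi library was lower, with a mean difference of −0.0805 ± 0.0502 and a limma adjusted p of 0.897. The neighbouring imd region c ran the other way, with 0.918 ± 0.0516 in LamB RNAi and 0.826 ± 0.0348 in attp40 (SD), overlapping groups and a limma adjusted p of 0.80.

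The groups did not overlap at these 3 regions, all lower in LamB RNAi (13.6% of the 22), against 3.16% of all regions, 2.09% lower and 1.07% higher. At an unadjusted limma p under 0.05 there were 2 of the 22 (9.09%), against 6.4% of all regions. The median difference over the 22 regions was −0.00200, with 11 above and 11 below 0, against −0.00296 over all. Cluster region d was at 0.505 ± 0.0832 in LamB RNAi and 0.485 ± 0.0812 in attp40, PGRP-LB region d at 0.680 ± 0.0822 in LamB RNAi and 0.661 ± 0.0438 in attp40, and Rel region b at 0.949 ± 0.0323 in LamB RNAi and 0.964 ± 0.0186 in attp40 (SD, n = 5 and 3). These main sites of PGRP-LC, PGRP-LB and Rel overlapped between the groups.

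**Figure D3:**
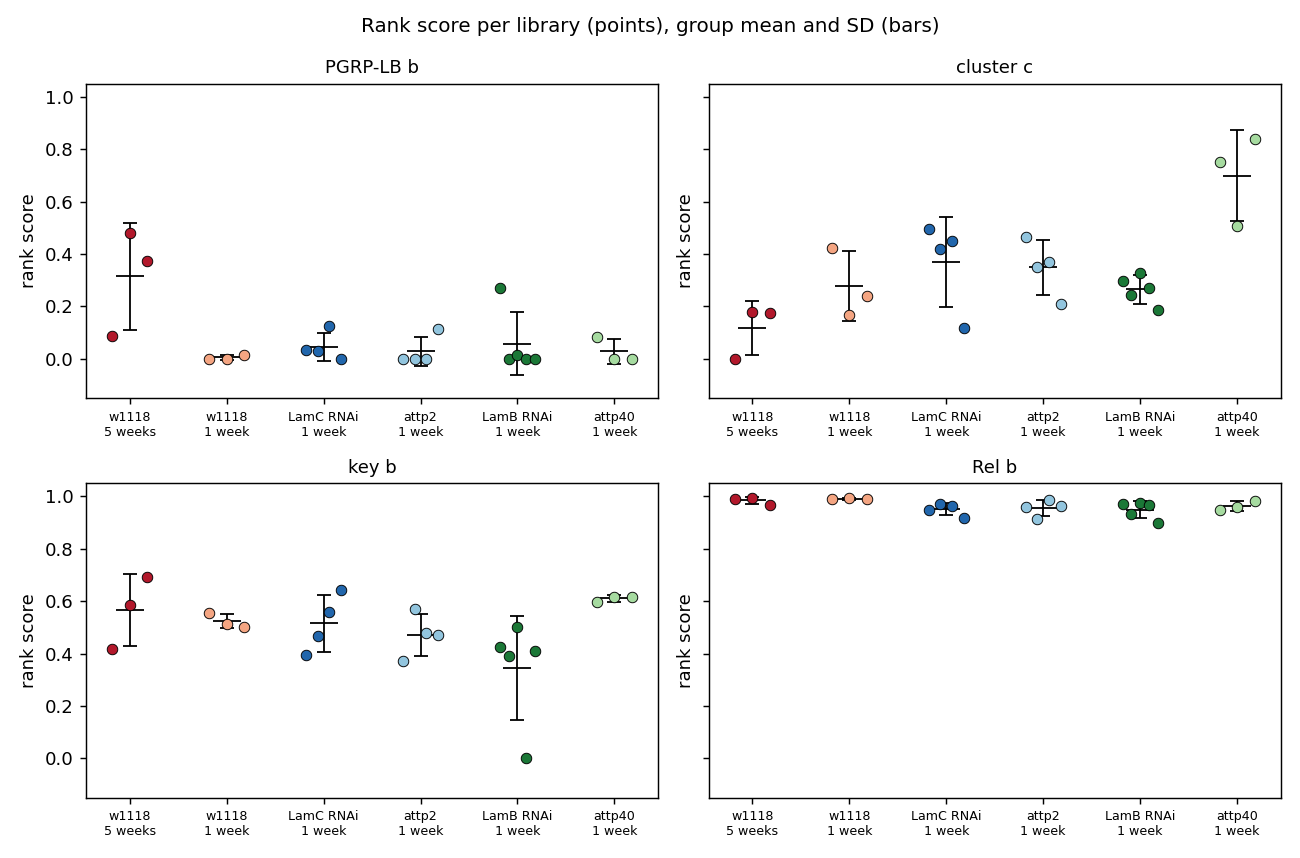
Rank score of 4 regions in each library (points), with the group mean and SD (bars), for w1118 at 5 weeks and 1 week, LamC RNAi, attp2, LamB RNAi and attp40. PGRP-LB region b is highest at 5 weeks, cluster region c is 0.505 or more only in attp40, key region b is 0 in 1 LamB RNAi library, and Rel region b is at least 0.900 in all 22 libraries.

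None of the 22 regions passed a limma test of the difference between the changes of any pair of comparisons, for which 0.396% (age against LamC RNAi), 0.152% (age against LamB RNAi) and 0.0711% (LamC RNAi against LamB RNAi) of all regions did. No library is shared by these comparisons. Besides PGRP-LB region b and cluster region c, 3 regions had an unadjusted limma p under 0.05. At pirk region c the change with age minus that after LamC RNAi was −0.304 (limma adjusted p = 0.501), and the change after LamC RNAi minus that after LamB RNAi was 0.294 (limma adjusted p = 0.624). At key region b the change after LamB RNAi was lower than that after LamC RNAi (a difference of 0.308, LamC RNAi minus LamB RNAi, limma adjusted p = 0.633) and lower than that with age (0.308, age minus LamB RNAi, limma adjusted p = 0.735). At imd region c the change after LamC RNAi minus that after LamB RNAi was −0.146 (limma adjusted p = 0.671).

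**Figure D4:**
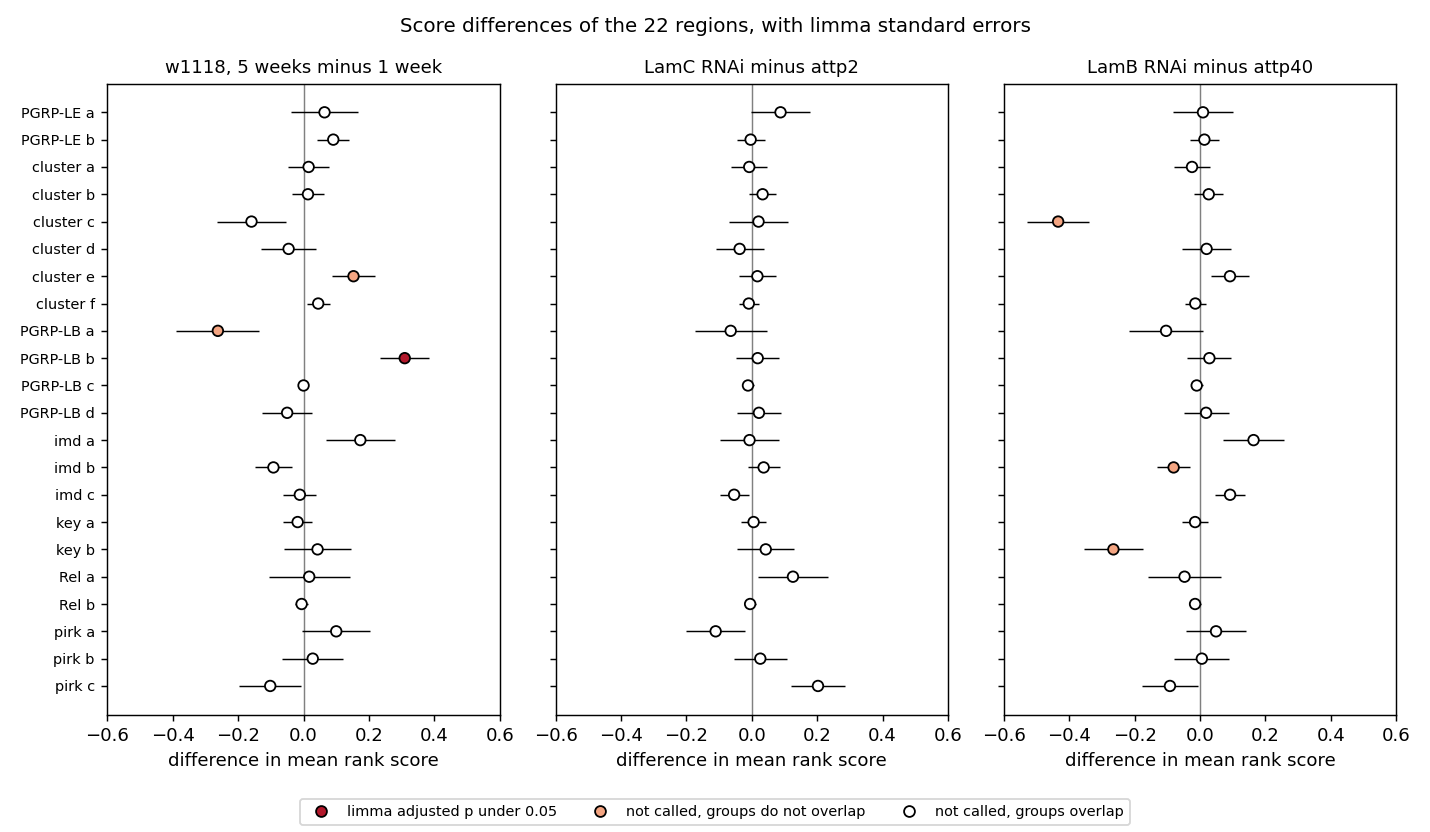
Difference in mean rank score (x axis; bars are limma standard errors) of the 22 regions for 5 weeks minus 1 week in w1118, LamC RNAi minus attp2 and LamB RNAi minus attp40. The filled red point, PGRP-LB region b at 0.309, passed the test, and the orange points mark regions whose groups did not overlap.

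Other genes of the pathway and of its neighbours were taken by the same window, and no region of these lists passed the limma test in any comparison. The unadjusted counts given for each list are to be read against 11.6% of all regions for age, 6.59% for LamC RNAi and 6.4% for LamB RNAi. Of 8 other PGRP genes 7 had a region (7 regions), with an unadjusted limma p under 0.05 in none for age and LamC RNAi and in 1 for LamB RNAi, at PGRP-LD, a family member without a settled role (−0.157, adjusted p = 0.684). The PGRP-LD difference was −0.0626 without attp40 replicate 3 and −0.0666 with all deposited peaks. The lowest p of this list was at the region of PGRP-SC1b and PGRP-SC2, secreted amidases, for age (−0.0505, adjusted p = 0.889) and at that of PGRP-SB1 and PGRP-SB2 for LamC RNAi (−0.153, adjusted p = 0.784). All 16 genes of the list of Imd signalling genes and regulators, 40 regions, were open, with unadjusted counts of 1, 3 and 0 for age, LamC RNAi and LamB RNAi. The lowest p was at Dnr1, an inhibitor of the caspase Dredd, for age (0.0709, adjusted p = 0.272), at Tab2, a partner of the kinase Tak1, for LamC RNAi (−0.213, adjusted p = 0.653) and at Diap2, a ubiquitin ligase, for LamB RNAi (0.144, adjusted p = 0.895, and a difference of 0.0352 without attp40 replicate 3). The library means of the 40 regions of this list were 0.589 to 0.592 in w1118 at 5 weeks and 0.568 to 0.574 in w1118 at 1 week, without overlap. In the other groups, all of 1 week, they were 0.560 to 0.591 in LamC RNAi, 0.576 to 0.604 in attp2, 0.562 to 0.594 in LamB RNAi and 0.541 to 0.587 in attp40. The ranges of attp2 and LamB RNAi covered the 5-week values, and the separation by age was not tested. In the JNK branch, which leaves the pathway at Tak1, all 5 genes had regions (18), with unadjusted counts of 2, 2 and 0. The lowest p was at puc, the JNK phosphatase, for age (−0.0415, adjusted p = 0.279), at bsk, the JNK gene itself, for LamC RNAi (0.0594, adjusted p = 0.697) and at a second region of puc for LamB RNAi (0.119, adjusted p = 0.896).

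Of 14 antimicrobial peptide genes, a class that includes targets of Relish, 12 had a region within 2 kb (9 regions), and AttA and Dro had none. Unadjusted counts were 0, 0 and 2 for age, LamC RNAi and LamB RNAi, where 11.6%, 6.59% and 6.4% of all regions had such a p. The region shared by CecA2, CecB and CecC (3R, 30214514 to 30215421), cecropin genes, scored 0.146, 0.233, 0.554, 0.638 and 0.250 in LamB RNAi and 0 in all 3 attp40 libraries. Every LamB RNAi library had a ranked peak and no attp40 library did, with a difference of 0.364 ± 0.107 and a limma adjusted p of 0.279. The other group means were 0.255 in w1118 at 5 weeks, 0.110 in w1118 at 1 week, 0.1255 in LamC RNAi and 0.112 in attp2. Of the 6 groups attp40 was thus the lowest and LamB RNAi the highest. No gene lay within 500 bp of this region. The lowest p for age was at Drs, encoding drosomycin (−0.115, and −0.209 to −0.0683 when single w1118 libraries were left out, limma adjusted p = 0.755), and that for LamC RNAi at DptA and DptB, encoding diptericins (−0.134, adjusted p = 0.887). All 15 genes of the parallel Toll pathway had regions (32), with unadjusted counts of 3, 1 and 0 in the same order. A region of nec, a serpin that inhibits Toll activation (2R, 7157907 to 7158773), scored 0.764, 0.587 and 0.597 at 5 weeks, against 0.893, 0.851 and 0.836 at 1 week. It was lower in all 3 libraries of 5 weeks, with a mean difference of −0.211 ± 0.0551 and a limma adjusted p of 0.0570. Dif, an NF-kappaB factor, had the lowest p after LamC RNAi (0.149, limma adjusted p = 0.673) and tub, an adaptor, after LamB RNAi (0.127, adjusted p = 0.821).

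The deposited lists held 8491 to 12395 peaks, and score correlations between libraries of a group were 0.867 to 0.949. All 11 heart marker genes had regions, with the highest mean scores at tin (0.967), Mef2 (0.898) and H15 (0.877) and low ones at Doc1 (0.260), Doc2 (0.171) and Doc3 (0.297). Markers of other cells were open too, with the highest mean scores at elav of neurons (0.961), ush (0.916) and crq (0.896) of hemocytes and kirre of nephrocytes (0.897). Others of these lists were low, with 0.114 at Hml, 0.0466 at He and 0.0074 at Sr-CI of hemocytes. Klf15 (0.152) and sns (0.284) of nephrocytes and Syt1 of neurons (0.0255) were low too. Heart and other lists each held high and low genes, so the scores do not set the heart apart from these cells. Regions were found in 6 of 7 genes for fat body (Fbp1 had no region), 8 of 9 for hemocytes (not eater), 4 of 5 for pericardial nephrocytes (not Cubn) and 4 of 5 for neurons and glia (not repo). Some of these lists moved with the groups. The library means of the 22 hemocyte regions were 0.308 to 0.331 at 5 weeks and 0.354 to 0.381 at 1 week. Those of the 15 nephrocyte regions were 0.421 to 0.469 at 5 weeks and 0.474 to 0.508 at 1 week. The ages did not overlap in either list, which was not tested. Of the hemocyte regions 8 were at ush and 6 at srp, and of the nephrocyte regions 12 were at kirre. Both means thus rest largely on few genes. In each of these lists 1 region passed the limma test and was lower at 5 weeks. They lay in the 2 kb windows of srp, a GATA factor of hemocytes, and of Klf15, a nephrocyte factor. The region near srp (3R, 16004851 to 16005459), 1 of its 6, had only lncRNA:CR42839 within 500 bp. The highest group means of any srp region were 0.719 at 5 weeks and 0.826 at 1 week in w1118. Of the 33 heart regions 1 also passed and was lower at 5 weeks, at mid, which was lower after LamB RNAi as well. The library means of the heart regions were 0.440 to 0.471 at 5 weeks and 0.459 to 0.4905 at 1 week, with overlap. At an unadjusted limma p under 0.05 there were 8 of the 33 for age, against 11.6% of all regions. For LamB RNAi there were 4, against 6.4% of all regions. Over all regions 1.32% passed for age, 0.711% lower, and 0.0711% were lower after LamB RNAi. The library means of the 13 fat body regions were 0.335 to 0.377 at 5 weeks and 0.308 to 0.363 at 1 week. Their median age difference was 0.00915, and 1 of them had an unadjusted limma p under 0.05, against 11.6% of all regions. That region, at the fat body gene Lsp2, scored 0.519 at 5 weeks and 0.196 at 1 week (limma adjusted p = 0.221). With lists cut to 4245 peaks its difference was 0.0560. For LamB RNAi and attp40 the ranges overlapped, at 0.324 to 0.402 in LamB RNAi and 0.366 to 0.418 in attp40 for hemocytes. They were 0.469 to 0.519 in LamB RNAi and 0.505 to 0.572 in attp40 for nephrocytes. For fat body they were 0.375 to 0.441 in LamB RNAi and 0.383 to 0.437 in attp40. The lowest p among nephrocyte regions for LamB RNAi was at sns (limma adjusted p = 0.0673). It scored 0.010 to 0.233 in LamB RNAi and 0.470 to 0.511 in attp40. Among neuron and glia regions the lowest p was at brp, at 0 in LamB RNAi and 0.239, 0.304 and 0 in attp40 (limma adjusted p = 0.0727). For hemocytes it was at srp (−0.180, limma adjusted p = 0.564) and for fat body at bmm (0.108, limma adjusted p = 0.870). The part of such shifts in the differences at PGRP-LB region b and cluster region c was not tested, and in a bulk library a change in the number of cells of a type and a change in each cell cannot be told apart.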

How the data were processed

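Bulk ATAC-seq peak lists of 22 heart libraries were used. The submitters' processing notes name Bowtie2, SAMtools, Picard and MACS2, and build dm6. Their versions and settings, and whether reads were shifted to the transposase cut, are not given in the sources used. The authors deposited 1 narrowPeak list per library, where every peak has a fold enrichment and the −log10 of its p-value and of its q-value, all set within that library. No reads were used, so depth is unknown.

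The 8491 strongest peaks by −log10 p of each list were merged with bedtools 2.31.1 (1 bp of overlap or more). A region was kept if 3 or more libraries had a peak in it. Its score in a library was 1 minus the rank of its strongest peak, counted from 0, divided by 8491. Scores were tested with limma 3.58.1 in R 4.3.3 (moderated, with a trend on the mean score) on the 22 libraries in 6 groups, which share 1 estimate of the spread, groups at 0 included. P-values were adjusted over 9850 regions (Benjamini-Hochberg) at a threshold of 0.05. The step was tested on simulated data. Genes came from the RefSeq annotation of the Release 6 assembly, which is that of dm6.

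All regions of the 9 genes are named, with library values for those past the threshold or without overlap. In the other pathway lists the region with the lowest p in each comparison is named. For the marker lists these regions are not given for LamC RNAi, nor for age in the list of neurons and glia. Library values for pirk region c and group values for main sites were chosen after the values were seen. Alternatives were another list length, ranking or filter, other fits, library weights and leaving out each library. The genes and lists were chosen with earlier results of these data known. For LamC and LamB RNAi the series' design text counts 3 and 4 libraries and the sample labels 4 and 5, all of which were used. A planned search for promoter motifs needs sequence and was not run, and no sequence is shown.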

Additional observations from a re-analysis of the deposited data

Results flagged for a closer look

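A single library lay far from the others of its group in 10 of the 64 groups of region scores that could be tested, where chance flags about 1 in 20 groups of values without a floor. The scores have a floor at 0, and the chance rate for them was not tested. A pair of these touches results above: LamB RNAi replicate 1 at PGRP-LB region b (0.272, with the other 4 at 0 to 0.0138) and LamB RNAi replicate 4 at key region b (0). At PGRP-LB region b attp2 replicate 4 (0.113) also stood alone, the other 3 libraries being at 0. LamC RNAi replicate 4 was low at imd region c (0.592), and LamC RNAi replicate 3 was high at PGRP-LE region a (0.660). The other 5 were libraries with a score in groups mostly at or near 0. They were LamB RNAi replicate 1 at cluster region a (0.141), LamC RNAi replicate 3 (0.237) and attp2 replicate 4 (0.167) at cluster region e, and attp2 replicate 2 (0.0460) and LamB RNAi replicate 4 (0.00860) at PGRP-LB region c.

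A pair of sites lay outside the regions that were tested and was counted in all deposited peaks. Of these, the site in PGRP-LC had a peak in the equal-length list of 1 library and was dropped by the filter on regions. The site next to PGRP-LB appeared only with all deposited peaks. Inside PGRP-LC (3L, 9339522 to 9339749) 3 of 5 LamB RNAi libraries and no attp40 library had a deposited peak, and next to PGRP-LB (3R, 11461083 to 11461513) this was so in 3 LamB RNAi libraries and in no attp40 library. The site in PGRP-LC also had a peak in 1 attp2 library, and the site next to PGRP-LB in 2 w1118 libraries of 5 weeks and 1 of 1 week. The difference was not tested. The number of deposited peaks also differed between these groups, at 9259 to 11150 in LamB RNAi and 8491 to 9711 in attp40.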

How the results depend on the processing

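With lists cut to 4245 peaks, 27 regions of the genome passed for age in place of 130, and with all deposited peaks 349, of which 232 were higher and 117 lower, against 60 and 70. Fits of the compared groups alone gave 20, 4 and 7 calls for age, LamC RNAi and LamB RNAi, and library weights gave 224 for age. Leaving out each library gave 61 to 171 calls for age, 12 to 22 for LamC RNAi and 8 to 24 for LamB RNAi, against 130, 15 and 18. The fewest came without replicate 3 of either age (61 and 67) and without LamB RNAi replicates 1, 4 and 5 (10, 9 and 8) or attp40 replicate 3 (9).

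Of the regions of the 9 genes, the 1 call for age was 0 with 4245 peaks, where PGRP-LB region b had no region, with ranking by fold enrichment, without the region filter and in the fit of the 2 groups. It was 0 to 1 when single w1118 libraries were left out. The 0 calls for LamB RNAi became 1, cluster region c, with 4245 peaks, ranking by fold enrichment and library weights, and were 0 to 1 when single LamB RNAi or attp40 libraries were left out. LamC RNAi kept 0 calls throughout. With a stricter q threshold, an overlap of 100 bp, all deposited peaks and library weights PGRP-LB region b stayed called.

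With the replicate number as a block, 58, 8 and 3 regions passed for age, LamC RNAi and LamB RNAi, and of the 9 genes' regions 0 in each, with limma adjusted p-values of 0.0699 at PGRP-LB region b and 0.361 at cluster region c. The labels do not say whether same-numbered libraries pair. Correlations of their deviations were 0.0237 to 0.147 for age, −0.274 to 0.0385 for LamC RNAi and 0.0841 to 0.213 for LamB RNAi. For some numbers the same-numbered library correlated best and for others it did not. This check cannot settle whether the libraries pair.

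Of the 66 differences of the 22 regions, 22 kept their sign under every alternative run. The age difference at PGRP-SC1b and PGRP-SC2 was −0.0924 to 0.0121 when single libraries were left out. The depth of each library is unknown, a score of 0 does not show closed chromatin, and 3 to 5 libraries a group limit what could be called.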

Other observations

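Rel region a, the weaker site 149 bp from the lower-coordinate end of Rel, was low in both w1118 groups. Its scores were 0.113, 0 and 0 at 5 weeks and 0, 0 and 0.0616 at 1 week, and 3 of the 6 w1118 libraries had a deposited peak there. In the 16 libraries with Hand-Gal4, 15 had a deposited peak, with scores of 0 to 0.507 and group means of 0.338 in LamC RNAi, 0.212 in attp2, 0.253 in LamB RNAi and 0.300 in attp40. Strain, driver and any difference in collection cannot be told apart here, and no test was made. PGRP-LB region c had no deposited peak in any of the 6 w1118 libraries and one in 8 of the 16 others.

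The regions outside the 9 genes whose scores ran most like those of PGRP-LB region b over the 22 libraries were at CG34417 (Spearman's rho 0.871), at CG32100 and Pbgs (0.804), at SNF4Agamma, a subunit of the energy sensor AMPK (0.790), at a site of 3L with no gene within 500 bp (778977 to 779546, 0.786) and at ATP8B (0.781). The libraries share groups and list lengths, and the values are a description. At ATP8B the mean score was 0.614 at 5 weeks and 0.352 at 1 week, and at SNF4Agamma 0.616 and 0.459.

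A further pair of sites near these genes lay outside the tested regions and was counted in all deposited peaks. At the lower-coordinate end of pirk (2R, 21660692 to 21661153), 2 libraries of 5 weeks, 1 of 1 week and 1 of LamB RNAi had a peak. Inside PGRP-LB (3R, 11456283 to 11456481), 1 library each of LamC RNAi, attp2 and LamB RNAi had a peak. The site inside PGRP-LB had a peak in the equal-length list of 1 library and was dropped by the filter on regions.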
